A study of Mus musculus with 36 samples.

Results

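The change of the Ikaros-induced B3 cells from 2 h to 24 h after 4-hydroxy-tamoxifen (4-OHT), beyond the change of the control cells over the same interval, was measured for 469 miRNAs. B3 is a mouse pre-B cell line. The Ikaros cells carried a retroviral MSCV construct in which Ikaros is fused to ERt2, a part of the estrogen receptor that binds hormone, so that 4-OHT brings the fusion into the nucleus, and the control cells carried the vector with ERt2 and GFP but without Ikaros. All samples, control included, have a label of 0.5 uM 4-OHT, and each line was a pool of transduced cells sorted for GFP. Of the 36 samples of the series, 12 belong to the comparison, namely Control 2h, Control 24h, Ikaros 2h and Ikaros 24h with 3 replicates each (numbered 1, 2 and 4), and the same number marks the same culture batch in all of these groups. For each culture batch the Control 24h minus Control 2h value was subtracted from the Ikaros 24h minus Ikaros 2h value. This difference in differences, called the excess change below, is on the log2 scale. It is positive where the Ikaros cells gained more, or lost less, than the control cells.

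Ikaros is a zinc finger transcription factor of lymphocytes, and its entry into the nucleus of pre-B cells halts their division and moves them to the next stage of B cell development. A miRNA is cut from a hairpin, whose arms give the 5p and the 3p product. As a rule the arm loaded into Argonaute, the guide, is stable and abundant, whereas the partner arm is degraded. The guide finds its target mRNAs chiefly through its seed, bases 2 to 8 from the 5′ end. Many hairpins lie in introns or exons of host genes or in clusters that are transcribed as 1 unit, such as miR-17-92, a cluster that sustains B cell progenitors.

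Mature sequences were taken from RefSeq (GRCm38.p6), where 391 of the 469 names and 52 of the 67 called miRNAs were found. The sequences are shown 5′ to 3′ in lower case with the seed in capitals. The first set holds miRNAs whose level rose in the Ikaros cells beyond the control, with both arms of miR-22 and both measured products of the Mir26a-2 hairpin, since these arms moved together.
miR-22-3p: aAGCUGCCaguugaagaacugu
miR-22-5p: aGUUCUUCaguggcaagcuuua
miR-26a-5p: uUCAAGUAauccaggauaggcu
miR-26a-2-3p: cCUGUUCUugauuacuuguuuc
miR-149-5p: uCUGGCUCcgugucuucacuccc
miR-501-5p: aAUCCUUUgucccugggugaaa
miR-362-3p: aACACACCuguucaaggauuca
miR-29c-3p: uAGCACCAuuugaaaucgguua
miR-21a-5p: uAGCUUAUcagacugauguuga

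The second set holds a choice of miRNAs that fell beyond the control and that the results below dwell on, with the more abundant partner arm after miR-210-5p, miR-92a-1-5p and miR-128-2-5p.
miR-3091-3p: cGGGCCUGaccagucucaagac
miR-210-5p: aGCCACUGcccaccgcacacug
miR-210-3p: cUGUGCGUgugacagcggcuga
miR-92a-1-5p: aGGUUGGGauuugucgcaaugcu
miR-92a-3p: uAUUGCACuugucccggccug
miR-339-3p: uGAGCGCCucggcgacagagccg
miR-128-2-5p: gGGGGCCGaugcacuguaagaga
miR-128-3p: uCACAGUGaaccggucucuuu
miR-301b-5p: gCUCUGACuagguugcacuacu
miR-24-1-5p: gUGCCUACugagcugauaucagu
miR-24-2-5p: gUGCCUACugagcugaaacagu

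The third set shows guides with 1 shared seed that did not get the same call. The first pair comes from miR-106b-25 and miR-17-92 and has the seed that miR-17, miR-20 and miR-93 share, and miR-25-3p has the seed of miR-92a-3p above.
miR-93-5p: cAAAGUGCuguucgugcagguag
miR-20a-5p: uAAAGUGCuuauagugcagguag
miR-25-3p: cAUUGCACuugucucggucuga
miR-146a-5p: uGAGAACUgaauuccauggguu
miR-146b-5p: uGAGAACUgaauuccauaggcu

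The 12 libraries had medians between 3.70 and 4.15, and their 10 most abundant miRNAs held between 75.8% and 82.6% of the linear total. miR-191-5p, miR-181a-5p, miR-10a-5p, miR-16-5p and miR-25-3p were the 5 most abundant by mean level. Ikaros 2h replicate 4 stood apart, with miR-10a-5p at the top (31.7% of its linear total, where miR-191-5p led in the other libraries of 2 h) and 60 of 469 miRNAs more than 1 away from the mean of the other Ikaros 2h libraries. The study's design drawing places all Ikaros samples of 2 h and 24 h in the first sequencing occasion, all Control 2h samples in the second, and Control 24h in the first or in both. Before the authors' batch correction the change of the control line therefore crossed occasions and that of the Ikaros line did not, and what this leaves in the excess change was not tested. The line difference at 2 h crossed occasions too, and what the correction left in it was not tested. The B-lineage and haematopoietic miRNAs taken as markers (7 measured) were both arms of miR-142, miR-150-5p, miR-155-5p, miR-181a-5p, miR-191-5p and miR-17-5p. They had a summed level of 18.94 to 19.63 in the 12 libraries. Most of it came from miR-191-5p and miR-181a-5p (means 18.47 and 18.12), whereas miR-150-5p had a mean of 3.91. Of these 7 markers limma called none, with 2 at an unadjusted p under 0.05. Of all 469 miRNAs limma called 67 (14.3%), with 138 at an unadjusted p under 0.05. Of 17 names listed as markers of other cell types 9 were measured, where miR-126a-3p was also listed as miR-126-3p. Their summed level was 13.12 to 13.62 in Control 2h, 13.35 to 13.53 in Control 24h, 12.97 to 13.74 in Ikaros 2h and 13.30 to 13.59 in Ikaros 24h, nearly all of it miR-9-5p. Not among the 469 were miR-1a-3p, miR-133a-3p and miR-206-3p (muscle), miR-122-5p (liver), miR-124-3p (nervous tissue), miR-451a and miR-144-3p (erythroid). Measured were miR-9-5p of nervous tissue (mean 13.37), miR-223-3p of myeloid cells (2.21) and miR-375-3p of endocrine cells (1.24). The epithelial miR-200a-3p, miR-200b-3p, miR-200c-3p, miR-141-3p and miR-429-3p were measured too, at means of 1.61 to 6.11. In the Ikaros line miR-223-3p rose by 1.49 (adjusted p = 0.0137), with an excess change of 1.05 (adjusted p = 0.277). Of the 9, limma called 1, miR-126a-3p of endothelium (mean 6.46), with -0.74 (adjusted p = 0.0449). The mRNA of Ikaros itself was not analysed here.

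Ikaros cells changed well beyond the control cells between 2 h and 24 h. In a limma fit of all 36 samples, 67 of 469 miRNAs (14.3%) had an excess change at an adjusted p under 0.05, 25 of them higher (5.33%) and 42 lower (8.96%), and 54 of the 67 moved by at least 1 on the log2 scale. Within the Ikaros line 134 miRNAs (28.6%) changed, 46 up and 88 down. Within the control line limma called 0 (0%), with 33 at an unadjusted p under 0.05. Of the 134 miRNAs of the Ikaros line, 59 also had an excess change, and the other 75 had a smaller median size of change (0.86 against 1.19) and a control change of the same sign in 49 cases. Both figures follow in part from the split itself, which was made by the difference between the lines. How often the lines changed with the same sign over all 469 was not counted. The plot of both lines' changes shows a vertical cloud, in which the called miRNAs lie above and below the diagonal of equal change.

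**Figure D1:**
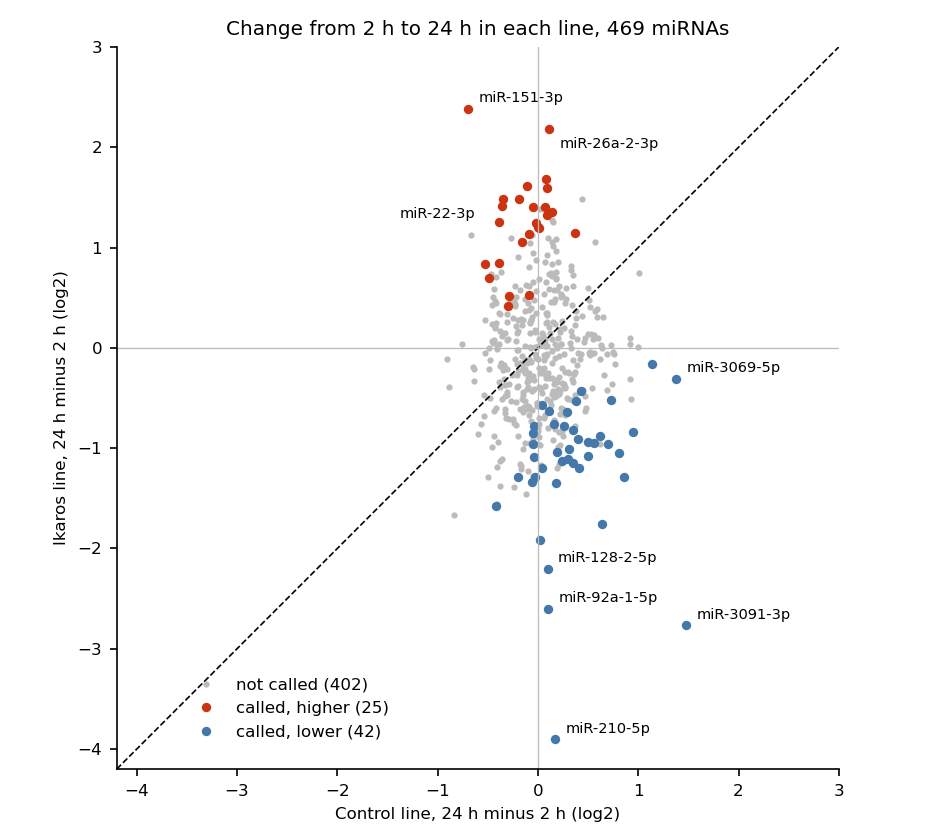
Change from 2 h to 24 h (log2) in the control line (x axis) and in the Ikaros line (y axis) for 469 miRNAs, 3 replicates per group. Red points are the 25 called higher and blue points the 42 called lower for the excess change, grey points the 402 not called, and the dashed line marks equal change. Called miRNAs spread mostly along the y axis, and miR-3069-5p lies far out along the x axis.

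The size and the split of these calls depended on scale and design. The median excess change of all 469 miRNAs was -0.17, and it was 0.05 after the median of each sample was subtracted, when 56 were called with 38 higher and 18 lower. Quantile normalization gave 23 higher and 27 lower. All 67 kept their sign in both. Subtracting medians could not have reversed any, since it shifts every excess change by the same amount. That shift is smaller than the least excess change of the 67, 0.61 in size. With 1 value per culture batch as the only replication, 38 miRNAs were called, 33 of the 67 among them. With the culture batch as a block the fit called 75, including all 67. Without Control 24h replicate 4 the count was 43 and without Ikaros 2h replicate 4 it was 54, of which 46 were shared. The count at 24 h was 64 when Control 18h, which was sequenced on the same occasion as Control 2h, stood in for Control 24h, and 47 of these were among the 67.

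Among the 67 the Ikaros line changed more than the control line in 62, and the control change was of the opposite sign in 51. Both counts follow in part from the choice of these miRNAs by their difference. The median change of the 25 higher miRNAs was 1.25 for the Ikaros cells and -0.09 for the control cells. For the 42 lower it was -1.02 and 0.30. The 5 in which the control line moved more were all lower ones, namely miR-138-5p, miR-1198-3p, miR-1946a, miR-1958 and miR-3069-5p. At 2 h the lines differed in 14 of the 67, and at 24 h they differed in 62. By the design drawing all Ikaros 2h libraries came from the first sequencing occasion and all Control 2h libraries from the second. Line and occasion therefore cannot be told apart in any difference at 2 h. Of the 67, 66 had the same sign in all 3 culture batches, the exception being miR-466d-5p, which the choice of these miRNAs by the mean of the same 3 values largely fixes. In 12 of the 67 at least 1 library had a value under 1, near the bottom of the scale, where the lowest value of a library was 0.17 to 0.50. Among these were miR-201-5p, miR-3091-3p, miR-128-2-5p, miR-7655-5p, miR-6974-5p, miR-1946a and miR-1946b, which are described below.

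miR-151-3p had the largest positive excess change. It lies in an intron of Ptk2 (Mir151, chr15:73254815-73254882, minus strand of GRCm38, as are all positions here), which codes for focal adhesion kinase. Its level was 2.33, 1.83 and 2.61 in Ikaros 2h and 4.36, 4.45 and 5.13 in Ikaros 24h, against 3.06, 3.74 and 3.24 in Control 2h and 2.27, 2.89 and 2.80 in Control 24h. The Ikaros groups did not overlap, and the lines changed places, with the Ikaros cells below the control at 2 h (-1.09) and above it at 24 h (1.99). At 2 h line and sequencing occasion cannot be told apart. The excess change was 3.08 (SE 0.44, adjusted p = 1.58e-05). Its 5p arm, at a similar level, had 1.37 (adjusted p = 0.101).

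miR-22 rose from both arms. The hairpin sits in an exon of Mir22hg (Mir22, chr11:75463716-75463810, plus strand), its long non-coding host, and miR-22-3p is a widely expressed guide known to restrain growth in several tissues. miR-22-3p had 12.51, 12.48 and 12.44 in Ikaros 2h, 13.72, 13.66 and 13.81 in Ikaros 24h, 12.42, 12.56 and 12.51 in Control 2h and 12.04, 12.05 and 12.24 in Control 24h. Libraries of the other groups lay between 12.04 and 12.56, so that all 3 of Ikaros 24h were above them. Its excess change of 1.64 (SE 0.18, adjusted p = 1.66e-07) was the most even of the named ones across culture batches, with 1.58, 1.68 and 1.65. The rarer miR-22-5p moved from 2.87, 2.70 and 2.17 to 3.77, 4.17 and 4.02 in the Ikaros line, and from 2.01, 2.27 and 2.13 to 1.91, 2.23 and 2.48 in the control line. Its excess change was 1.34 (SE 0.37, adjusted p = 0.0157), and 1.13 (adjusted p = 0.0552) without Ikaros 2h replicate 4.

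Products of Mir26a-2 rose together as well. This hairpin (chr10:126995530-126995613, plus strand) lies within Ctdsp2, a gene of a small phosphatase, in a part annotated as exon of at least 1 transcript. miR-26a-2-3p, which only this hairpin makes, was 2.93, 3.76 and 3.57 in Ikaros 2h and 5.71, 5.76 and 5.33 in Ikaros 24h, and stayed between 3.82 and 4.64 in the 6 control libraries. The excess change was 2.07 (SE 0.33, adjusted p = 4.47e-05). miR-26a-5p, the abundant guide known for targeting the histone methyltransferase Ezh2, is also made from Mir26a-1 in Ctdspl and had 1.21 (SE 0.19, adjusted p = 3.07e-05). The related miR-26b-5p had 0.35 (adjusted p = 0.425).

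miR-149-5p, from an intron of the proteoglycan gene Gpc1 (Mir149, chr1:92850378-92850443, plus strand), was 5.92, 5.62 and 5.30 in Ikaros 2h and 7.36, 7.29 and 7.24 in Ikaros 24h. The control libraries stayed between 5.62 and 6.14, and its excess change was 1.61 (SE 0.32, adjusted p = 0.000619). miR-201-5p (Mir201, chrX:67988096-67988161, minus strand, between genes) had 1.72 (SE 0.41, adjusted p = 0.00493), with Ikaros 2h at 0.66, 0.40 and 0.82 and Ikaros 24h at 2.26, 1.99 and 2.47. miR-1843a-3p, whose hairpin lies in an intron of Dcaf5 and overlaps the small Cajal body RNA Scarna3b, had 1.46 (SE 0.39, adjusted p = 0.0131). For miR-677-3p, in an intron of the ATP synthase gene Atp5b, the value was 1.84 (SE 0.61, adjusted p = 0.0412). miR-6240 had 1.37 (SE 0.38, adjusted p = 0.0157) and miR-1949 had 1.50 (SE 0.48, adjusted p = 0.0351). Single libraries decided the calls of these last 3. Without Control 2h replicate 4 miR-6240 had 1.04 (adjusted p = 0.0651). miR-677-3p was not called without any 1 of 8 of the 12 libraries, at adjusted p-values of 0.0646 to 0.122, the calls made being those without replicate 4 of either Ikaros group, Control 2h replicate 2 or Control 24h replicate 1. For miR-1949 it was likewise 8 libraries, at 0.0549 to 0.111, all but replicates 1 and 2 of Ikaros 2h and replicate 1 of either control group.

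**Figure D2:**
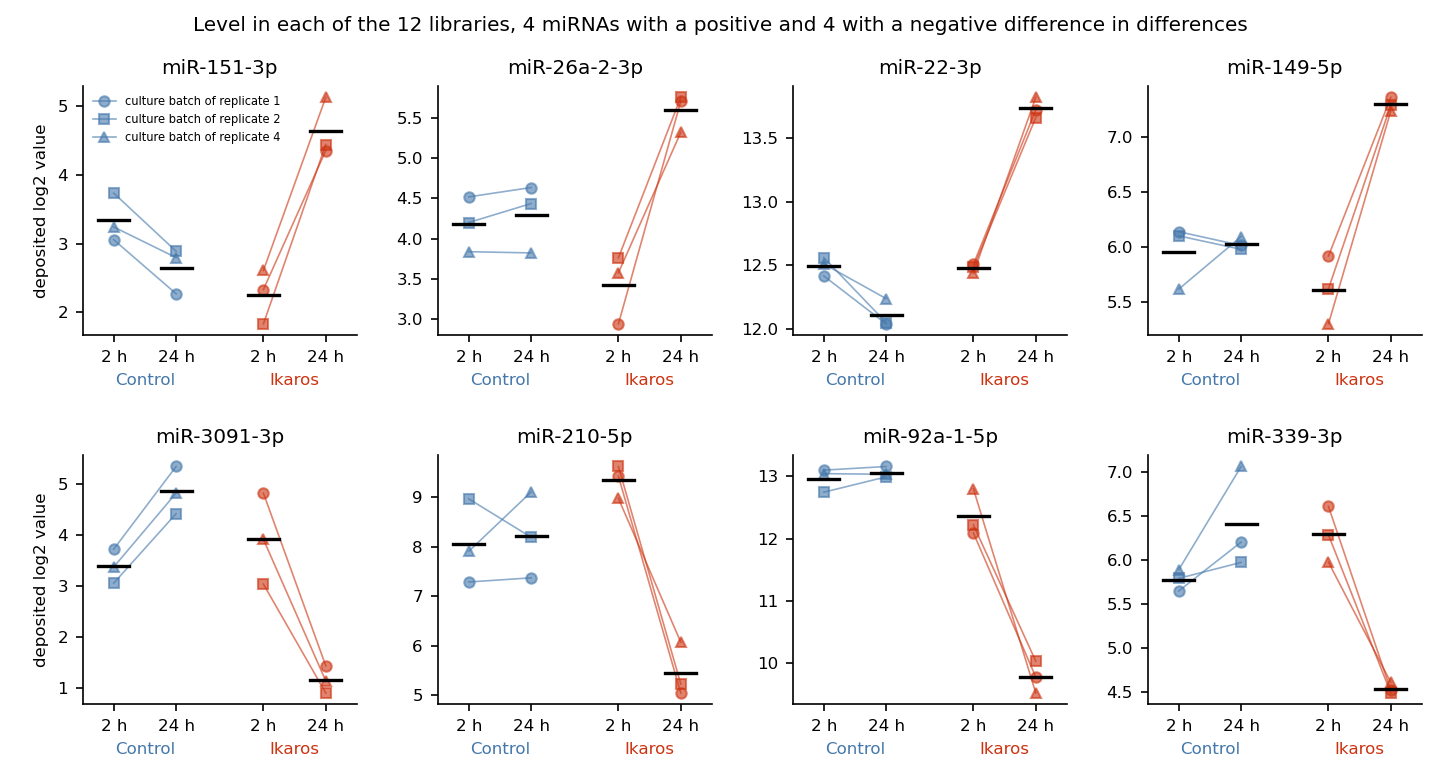
Deposited log2 value (y axis, a separate range per panel) of 8 named miRNAs in the 12 libraries, with a line joining the 2 h and 24 h samples of 1 culture batch (circle, square and triangle for replicates 1, 2 and 4) and black bars for group means. In every panel the Ikaros 24h libraries lie apart from the Ikaros 2h libraries, and miR-3091-3p also moves in the control line, in the other direction. The 8 were picked among miRNAs chosen by the excess change of these same libraries, which largely fixes that separation. How many of all 469 miRNAs show it was not counted.

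The largest fall was that of miR-3091-3p, from an intron of the ribosomal protein gene Rps21 (Mir3091, chr2:180257536-180257611, plus strand). Its level was 4.82, 3.03 and 3.91 in Ikaros 2h and 1.43, 0.90 and 1.13 in Ikaros 24h, whereas it was 3.72, 3.05 and 3.37 in Control 2h and 5.34, 4.41 and 4.82 in Control 24h. Neither line's groups overlapped, and the lines moved in opposite directions. The Ikaros 24h values lie near the bottom of the scale, where the size of a fall is uncertain. The excess change of -4.24 (SE 0.66, adjusted p = 3.07e-05) was made of -2.77 for the Ikaros cells and 1.48 for the control cells, the latter at an adjusted p = 0.273. With Control 18h in place of Control 24h it was -3.55 (adjusted p = 0.000351).

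miR-210 is the classical miRNA of hypoxia, induced by HIF, and here 1 of its arms was called. miR-210-5p was 9.43, 9.63 and 8.98 in Ikaros 2h and 5.04, 5.22 and 6.07 in Ikaros 24h, and ranged from 7.29 to 9.11 in the 6 control libraries, which scattered more than the Ikaros ones. Its excess change was -4.07 (SE 0.80, adjusted p = 0.000619). miR-210-3p, the guide, fell in the Ikaros line by 1.66 (adjusted p = 0.000491), but the control value was -0.84 as well, and the excess change was -0.82 (adjusted p = 0.25). The hairpin lies between genes (Mir210, chr7:141221384-141221493, minus strand).

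miR-92a-1-5p is the partner arm of the last hairpin of miR-17-92 (Mir92-1, chr14:115044427-115044506, plus strand, in an exon of Mir17hg) and was among the abundant miRNAs of these cells. It was 12.09, 12.22 and 12.80 in Ikaros 2h and 9.77, 10.02 and 9.51 in Ikaros 24h, against 13.10, 12.75 and 13.05 and 13.16, 12.99 and 13.03 in the control line. The 6 control libraries lay between 12.75 and 13.16. Of the 469 miRNAs this one had the lowest adjusted p, with -2.70 (SE 0.25, adjusted p = 2.97e-09). miR-92a-3p, its guide, which a second hairpin also makes, had -0.15 (adjusted p = 0.841).

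miR-339-3p, from an intron of 3110082I17Rik (Mir339, chr5:139369650-139369745, minus strand), fell from 6.61, 6.29 and 5.98 to 4.52, 4.49 and 4.61 in the Ikaros line. It was 5.65, 5.79 and 5.89 in Control 2h and 6.21, 5.97 and 7.07 in Control 24h, where replicate 4 was high. The excess change was -2.39 (SE 0.38, adjusted p = 4.47e-05), and -1.41 (adjusted p = 0.0141) with Control 18h in place of Control 24h. miR-128-2-5p, the partner arm of a hairpin in an intron of Arpp21 (Mir128-2, chr9:112118636-112118711, minus strand), closed a gap between the lines. It was 3.33, 3.21 and 3.89 in Ikaros 2h and 1.80, 0.83 and 1.19 in Ikaros 24h, and between 0.99 and 1.45 in all control libraries, so that the line difference was 2.29 at 2 h and -0.0049 at 24 h. The gap at 2 h lies between sequencing occasions as well. The excess change was -2.30 (SE 0.35, adjusted p = 3.07e-05). The guide miR-128-3p, which a second hairpin also makes, had 0.88 (adjusted p = 0.081). For miR-301b-5p (Mir301b, chr16:17124400-17124496, minus strand, intron of 2610318N02Rik) the value was -1.94 (SE 0.45, adjusted p = 0.00428), and its guide miR-301b-3p had 0.58 (adjusted p = 0.379).

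The other 6 named lower miRNAs were of low level, and the control line contributed to each. miR-7655-5p, in an intron of Mllt10, had an excess change of -2.14 (SE 0.47, adjusted p = 0.00248), of which -1.29 came from the Ikaros and 0.86 from the control line. miR-6974-5p, in an intron of the cytokine gene Lta, had -1.86 (SE 0.51, adjusted p = 0.0138), and -1.46 (adjusted p = 0.0581) without Ikaros 2h replicate 2. All Ikaros 24h values of miR-6974-5p and of miR-1946a were under 0.7, close to the bottom of the scale. miR-1187 had -1.60 (SE 0.38, adjusted p = 0.00436). miR-1946a and miR-1946b, which share a base name, had -1.79 (SE 0.59, adjusted p = 0.0375) and -1.66 (SE 0.46, adjusted p = 0.0145), and with Control 18h in place of Control 24h neither was called, at -1.45 (adjusted p = 0.104) and -1.08 (adjusted p = 0.119). miR-1946a was not called without any 1 of 9 of the 12 libraries (adjusted p = 0.0530 to 0.127), all but replicates 1 and 2 of Ikaros 2h and Control 2h replicate 4, for example at -1.34 (adjusted p = 0.127) without Ikaros 2h replicate 4, and miR-1946b had -1.24 (adjusted p = 0.0592) there. miR-3069-5p overlaps the small Cajal body RNA Scarna13 in Snhg10. It was 2.52, 3.01 and 3.82 in Ikaros 2h and 3.48, 2.74 and 2.22 in Ikaros 24h, groups that overlap, and rose from 1.39, 2.15 and 2.00 to 3.43, 2.70 and 3.54 in the control libraries. Its excess change of -1.68 (SE 0.58, adjusted p = 0.0472) became -0.46 (adjusted p = 0.628) with Control 18h. It was not called without any 1 of 8 libraries (adjusted p = 0.0648 to 0.130), all but replicate 1 of either Ikaros group and replicate 2 of either control group.

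**Figure D3:**
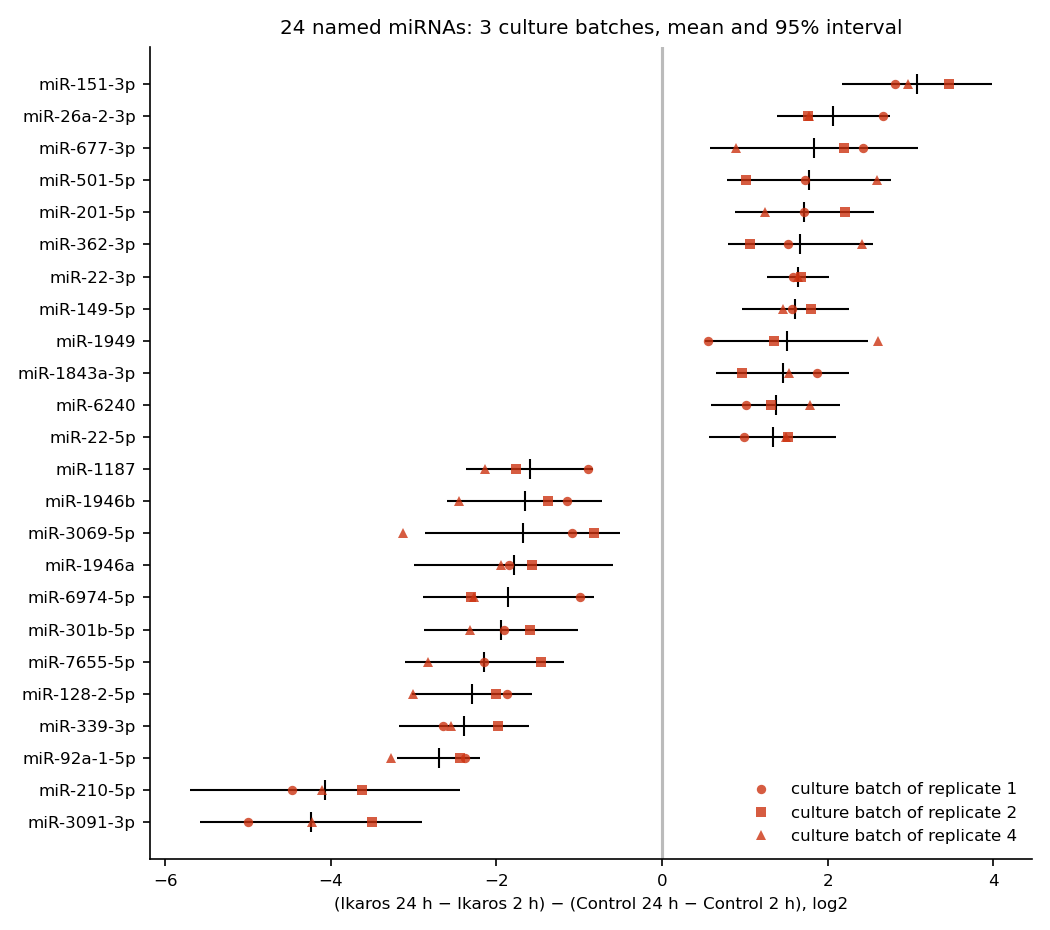
Excess change (x axis, log2) of the 24 named miRNAs in each culture batch (circle, square and triangle for replicates 1, 2 and 4), with the mean as a tick and its 95% interval from limma as a bar. All 72 points lie on the side of their mean, as the naming rule requires, with those of miR-22-3p from 1.58 to 1.68 and those of miR-3069-5p from -3.13 to -0.82.

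Both arms were measured for 129 hairpins, and the difference between arms was not tested. Of these 14 of the less abundant arms were called, 4 higher and 10 lower, and 18 of the more abundant arms, 11 higher and 7 lower, beside 14.3% called of all miRNAs. Both arms were called in 2 hairpins. Those were miR-22, with both arms up, and miR-1198 (Mir1198, chrX:7807101-7807221, plus strand, intron of Gripap1), with its arms on opposite sides. miR-1198-5p had 1.19 (SE 0.19, adjusted p = 5.05e-05), whereas miR-1198-3p had -1.24 (SE 0.37, adjusted p = 0.0226), of which 0.73 was a control gain. The median excess change was -0.19 in the less abundant and -0.03 in the more abundant arms, and the less abundant arm had the lower value in 80 of the 129. By culture batch these medians were -0.33 and 0.06 in replicate 1, -0.13 and 0.00402 in replicate 2, and -0.09 and -0.16 in replicate 4, so the order was not the same in all 3. Beside miR-210 and miR-301b, called partner arms that fell while the abundant arm was not called included miR-155-3p with -1.26 (adjusted p = 0.0179) against 0.32 (adjusted p = 0.414) for miR-155-5p, an arm that activated B cells depend on. miR-501 and miR-362 showed the converse, with the less abundant arm up.

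**Figure D4:**
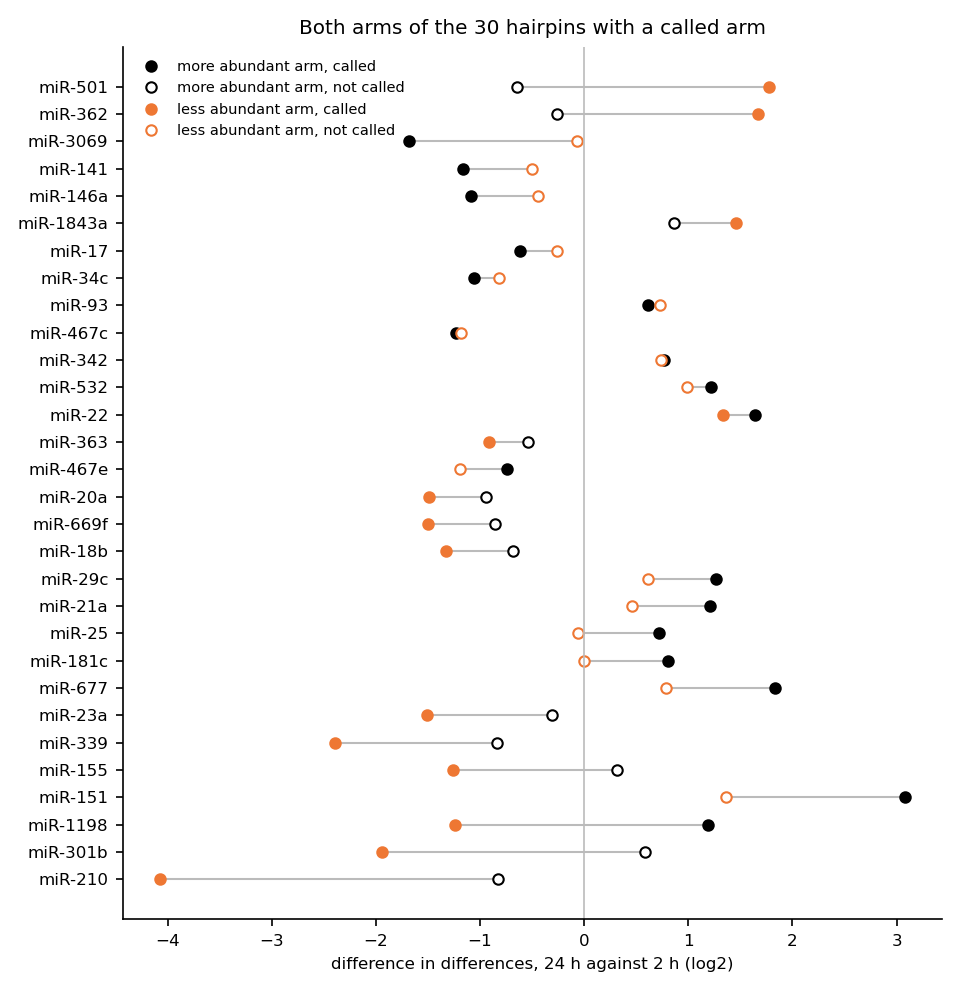
Excess change (x axis, log2) of both arms of the 30 hairpins with at least 1 called arm, ordered by the difference between the arms. Orange points are the less abundant and black points the more abundant arm by mean level, filled where called. The arms of miR-210, miR-301b, miR-1198 and miR-501 are farthest apart, and those of miR-22, miR-93 and miR-342 close together.

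In the miR-17-92 cluster limma called partner arms but no guide, a contrast that was not tested. Of 6 partner arms 4 were lower, with a median of -1.29 over all 6, and of 6 guides limma called none (1 at an unadjusted p under 0.05), with a median of -0.21, against 14.3% called and a median of -0.17 over all miRNAs. Besides miR-92a-1-5p these were miR-19b-1-5p with -1.58 (SE 0.49, adjusted p = 0.0303), miR-20a-3p with -1.49 (SE 0.34, adjusted p = 0.00294) and miR-17-3p with -0.61 (SE 0.19, adjusted p = 0.0334). By mean level miR-17-3p, listed here as a partner arm, was the more abundant arm, at 7.39 against 6.77 for miR-17-5p. The partner arms miR-18a-3p and miR-19a-5p had -0.46 (adjusted p = 0.268) and -1.08 (adjusted p = 0.126). Among guides miR-20a-5p was nearest to the threshold with -0.94 (adjusted p = 0.0569), a lower value than that of miR-17-3p. miR-19a-3p and miR-19b-3p were too scattered to be read, with standard errors of 1.88 and 1.79. With sample medians subtracted the guide median was 0.01 and the partner median -1.07, with 3 of the partner arms called, and quantile normalization called 2 partner arms and 1 guide, miR-20a-5p, all lower.

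In the paralog clusters the calls had different directions. miR-106b-25 on chromosome 5 lies in Mcm7, a gene of the replicative helicase, and 2 of its 6 arms were higher, none lower. They were miR-93-5p (Mir93, chr5:138165523-138165610, minus strand) with 0.61 (SE 0.16, adjusted p = 0.0102) and miR-25-3p (Mir25, chr5:138165321-138165404, minus strand) with 0.72 (SE 0.23, adjusted p = 0.0351). miR-25-3p had 0.46, 0.61 and 1.07 in the 3 culture batches. miR-106a-363 on chromosome X had 10 measured arms, all with a negative value, and 2 were called lower, miR-18b-3p with -1.33 (SE 0.30, adjusted p = 0.00294) and miR-363-5p with -0.91 (SE 0.31, adjusted p = 0.0435). Over all 469 miRNAs 5.33% were called higher, 8.96% were called lower and 281 had a negative value. The median excess change was 0.63 in miR-106b-25 and -0.67 in miR-106a-363. Subtracting sample medians left these at 0.85 and -0.46. The difference between the clusters was not tested.

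Products of the miR-23a, miR-27a and miR-24-2 cluster (chr8:84208518-84208921, from Mir23a to Mir24-2) fell from their 5p arms. Of 4 measured arms, leaving out the shared miR-24-3p, 3 were called lower, beside 8.96% of all miRNAs. miR-24-2-5p, an abundant one, had -1.31 (SE 0.31, adjusted p = 0.00487), miR-27a-5p had -1.04 (SE 0.27, adjusted p = 0.0102) and miR-23a-5p had -1.51 (SE 0.45, adjusted p = 0.0226). miR-24-1-5p, from the other cluster on chromosome 13, had -1.44 (SE 0.41, adjusted p = 0.0182) and shares its seed with miR-24-2-5p. Its values were -1.10, -0.37 and -2.84 in the culture batches, and it was not called without Ikaros 2h replicate 4, at -1.26 (adjusted p = 0.0552), or with 1 value per culture batch (adjusted p = 0.0748). Their common guide miR-24-3p had -0.92 (SE 0.29, adjusted p = 0.0344), whereas miR-23a-3p had -0.31 (adjusted p = 0.572) and miR-23b-3p 0.06 (adjusted p = 0.923). On the strand opposite to Mir24-1, miR-3074-1-3p had -0.91 (adjusted p = 0.0351), and since its hairpin overlaps Mir24-1, reads of these can be confused unless strand was used. After sample medians were subtracted 1 arm of the chromosome 8 cluster was called, miR-24-2-5p.

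Of 10 measured miRNAs in an intron of Clcn5 on chromosome X, 3 were higher, none lower, and the median was 1.05, against 5.33% higher, 8.96% lower and a median of -0.17 over all miRNAs. miR-501-5p (Mir501, chrX:7241243-7241351, minus strand) was 4.90, 4.83 and 3.54 in Ikaros 2h and 5.97, 6.09 and 5.47 in Ikaros 24h, with all control libraries between 2.16 and 3.04. Its excess change was 1.78 (SE 0.48, adjusted p = 0.0137). The lines differed by 1.73 at 2 h, where line and sequencing occasion cannot be told apart. In both this miRNA and the next replicate 4 was the lowest of Ikaros 2h. miR-362-3p (Mir362, chrX:7241982-7242046, minus strand) moved from 7.32, 7.63 and 6.14 to 8.73, 8.60 and 8.21, with 1.67 (SE 0.43, adjusted p = 0.0102). miR-532-5p, the most abundant, had 1.22 (SE 0.33, adjusted p = 0.0129). The neighbours miR-501-3p and miR-362-5p had -0.64 (adjusted p = 0.374) and -0.26 (adjusted p = 0.796). Without Ikaros 2h replicate 4, 2 members were called and miR-501-5p had 1.34 (adjusted p = 0.0552). With Control 18h in place of Control 24h 1 member was called, with 1.35 (adjusted p = 0.0578) for miR-501-5p and 1.16 (adjusted p = 0.0694) for miR-362-3p.

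In other families 1 member was called, beside 14.3% of all miRNAs, and no test set a member against its relatives. Families of so few members are too small for 1 call to be read against that share. miR-29c-3p, of a family known to target DNA methyltransferases and collagens, had 1.26 (SE 0.24, adjusted p = 0.000461), while miR-29a-3p, with the same seed, had 0.55 (adjusted p = 0.0724) and miR-29b-3p 0.34 (adjusted p = 0.648). With sample medians subtracted 2 of these 3 were called. In the miR-181 family, which is prominent in early lymphocytes, all 4 values were positive, beside 188 of all 469 miRNAs. In this family 1 was called, miR-181c-5p with 0.81 (SE 0.26, adjusted p = 0.0366). miR-181a-5p, the second most abundant miRNA of these libraries, had 0.74 (adjusted p = 0.0649). Among the lymphocyte regulators miR-146a-5p, which dampens NF-kappaB signalling, had -1.09 (SE 0.29, adjusted p = 0.0133) with -1.09, -1.04 and -1.13 in the culture batches. Its relative miR-146b-5p, of the same seed, had 0.42 (adjusted p = 0.352) and miR-150-5p, a miRNA of mature lymphocytes, had -1.09 (adjusted p = 0.116). In the p53-linked family of miR-34 and miR-449 miR-34c-5p had -1.05 (SE 0.33, adjusted p = 0.0302), miR-34b-5p -1.38 (adjusted p = 0.102), miR-34a-5p -0.48 (adjusted p = 0.179) and miR-449a-5p 0.57 (adjusted p = 0.307). miR-342-3p, hosted by an intron of Evl, belongs to a list of 4 that was drawn up on these same samples and is therefore no independent evidence, and had 0.77 (SE 0.23, adjusted p = 0.0226), and the other 3 of that list were not called. After sample medians were subtracted none of the 4 lymphocyte regulators and none of the 4 of the miR-34 and miR-449 family was called.

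Of all 469 miRNAs limma called 67 (14.3%), with 138 at an unadjusted p under 0.05. In 8 families with 40 measured members it called none, with 5 at an unadjusted p under 0.05. These were let-7 (6 measured, median 0.16), miR-15 and miR-16 (6, 0.44), miR-30 (4, 0.59), miR-221 and miR-222 (2, 0.04), miR-10, miR-99, miR-100 and miR-125 (5, -0.51), the cluster of miR-322, miR-503, miR-351, miR-542 and miR-450 (12, 0.35), miR-182 and miR-183 (2, -0.91) and miR-132 and miR-212 (4, -0.23). Their single values ranged from -1.18 in miR-182-5p to 1.03 in miR-30e-5p. For miR-16-5p, a brake on the cell cycle and the most abundant of them besides miR-10a-5p, the 95% interval was -0.01 to 0.74, and for miR-10a-5p it was -2.16 to 1.14. After subtraction of sample medians 1 of let-7 and 1 of miR-15 and miR-16 were higher. miR-99b-5p, at -1.10 (adjusted p = 0.0578), had -1.24 (adjusted p = 0.0482) without Ikaros 2h replicate 4 and an adjusted p = 0.0166 with 1 value per culture batch. With quantile normalization the median of let-7 was -0.06.

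miRNAs of the miR-297, miR-466, miR-467 and miR-669 names, most of them made from near-identical hairpins in an intron of Sfmbt2, were looked at after their values were seen. Of 35 measured, 32 had a negative value, 7 were lower and none was higher, with a median of -0.80. Over all 469 miRNAs 281 had a negative value, 8.96% were lower and the median was -0.17. With Control 18h in place of Control 24h 13 of the 35 were lower. The best separated was miR-467c-5p with -1.24 (SE 0.21, adjusted p = 9.41e-05), with -1.31, -1.21 and -1.18 in the culture batches. miR-669p-3p had -1.53 (SE 0.40, adjusted p = 0.0102) and miR-669f-3p -1.50 (SE 0.35, adjusted p = 0.00436). Since their sequences are alike, the reads of these miRNAs cannot be assigned with certainty, and they are not 35 separate measurements. After sample medians were subtracted the median was -0.58 and 3 were called.

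Of the other called miRNAs, miR-21a-5p rose in the Ikaros line. It is an abundant guide from Vmp1 (Mir21a, chr11:86584067-86584158, minus strand) and went from 14.09, 14.32 and 14.52 in Ikaros 2h to 15.39, 15.34 and 15.38 in Ikaros 24h, with 15.13, 15.10 and 15.15 in Control 2h and 14.90, 15.01 and 15.01 in Control 24h. Its excess change was 1.21 (SE 0.20, adjusted p = 4.47e-05). At 2 h the Ikaros cells were below the control (means 14.31 and 15.13), where line and sequencing occasion cannot be told apart. The excess change at 18 h was 0.60 (adjusted p = 0.0708). Among abundant miRNAs that fell, miR-298-5p, near the imprinted Gnas locus, was at a mean of 13.81 and had -1.28 (SE 0.33, adjusted p = 0.0102). miR-147-3p had -1.41 (adjusted p = 0.00248). The others were miR-350-3p, miR-5121, miR-5129-3p and miR-181b-2-3p among the higher, at 1.18 to 1.23, and miR-7a-2-3p, miR-1958, miR-141-5p, miR-3098-5p and miR-138-5p among the lower, at -1.37 to -0.87.

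The share of calls varied little with GC content. In 4 groups by GC content the share called was 13.3%, 13.3%, 13.8% and 12.9% from the lowest to the highest, while the median excess change went from -0.03 to -0.36, with 9 of 14 calls higher in the lowest group and 3 of 12 in the highest. In 4 groups by level, from the lowest to the highest, the share was 7.63%, 14.5%, 17.1% and 17.9%. By first base the share called was 14.4% of 104 miRNAs with A, 11.4% of 88 with C, 22.0% of 41 with G and 11.4% of 158 with U. The groups by first base and by GC content hold only the 391 miRNAs with a sequence, of which 52 were called. Of all 469 it was 14.3%, a set that includes those without a sequence. The calls were 7 higher and 8 lower with A, 5 and 5 with C, 1 and 8 with G, and 9 and 9 with U. No seed was held by more than 1 called miRNA except UGCCUAC of miR-24-1-5p and miR-24-2-5p, among the 391 with a sequence. In the AAAGUGC group of 6 guides (miR-17, miR-20, miR-93 and miR-106) 1 was called and 4 had negative values, and in the AUUGCAC group of 5 (miR-25, miR-32, miR-92 and miR-363) 1 was called and 4 had negative values as well. Over all 469 miRNAs 281 values were negative.

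Fewer miRNAs were called at the earlier times. Taken against 2 h in the same way, 0 miRNAs were called by limma at 6 h (18 at an unadjusted p under 0.05), 3 at 12 h and 19 at 18 h (4.05%, 8 higher and 11 lower). All these comparisons share the 2 h samples, and so their values are only set side by side. The miRNAs below were chosen by their 24 h value, which in part fixes that it is the largest. The 25 higher miRNAs had medians of 0.04, 0.37 and 0.96 at 6, 12 and 18 h before 1.26 at 24 h, and the 42 lower ones -0.27, -0.42, -0.99 and -1.32. miR-151-3p was at 1.55, 1.70, 3.09 and 3.08, and so had reached its 24 h value by 18 h. miR-92a-1-5p went -0.40, -0.98, -1.91 and -2.70, a steady fall. miR-210-5p was at 0.50 and -0.22 at 6 and 12 h, -1.95 (adjusted p = 0.157) at 18 h and -4.07 at 24 h. miR-339-3p went from -0.85 at 18 h to -2.39 at 24 h. Against 0 h, which came from other culture batches, 58 miRNAs were called at 24 h.

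**Figure D5:**
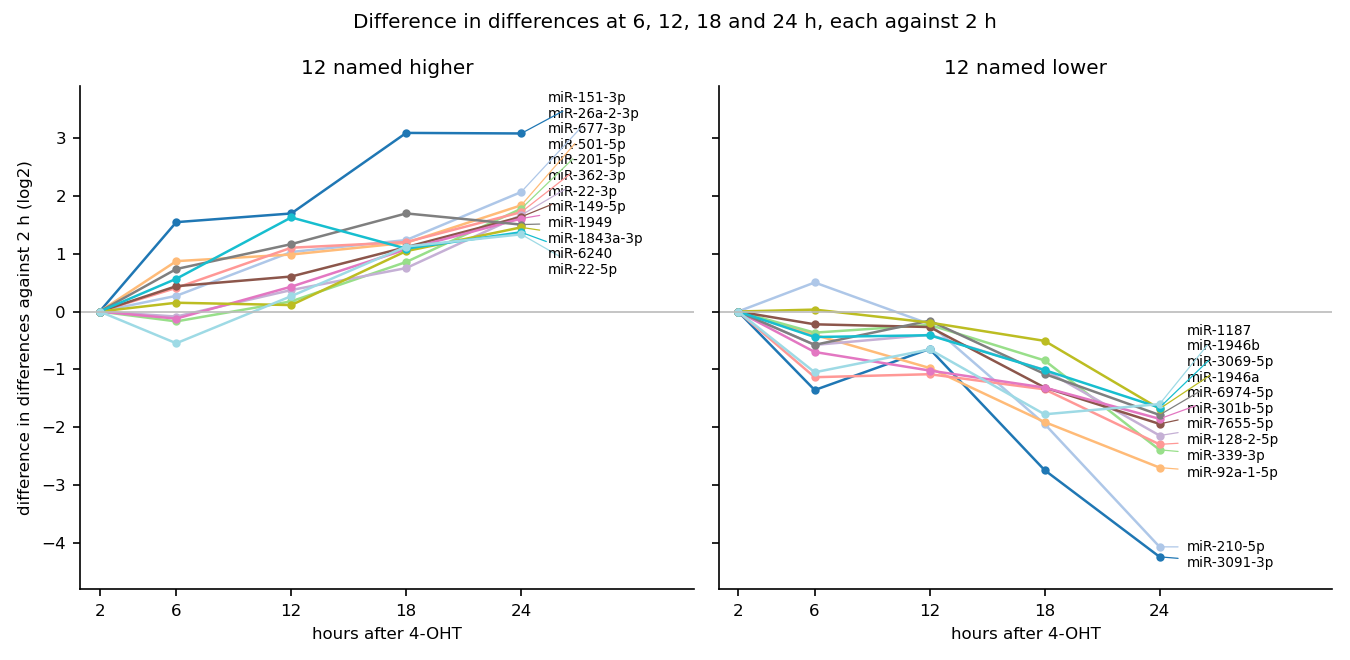
Excess change against 2 h (y axis, log2) at 6, 12, 18 and 24 h after 4-OHT (x axis) for the 12 named higher (left) and 12 named lower (right) miRNAs, each point from 12 libraries and with the 2 h samples in common. miR-151-3p is at 1.55 or more from 6 h on, and the other lines lie between -1.36 and 0.87 at 6 h.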

How the data were processed

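Small RNA libraries (TruSeq small RNA, HiSeq) of the 12 samples were part of a series of 36. The deposited table holds log2 values of 469 miRNAs. Per their methods, the authors aligned reads to miRBase with Novoalign, counted with multiBamCov of bedtools, dropped miRNAs of low CPM (NOISeq), removed GC bias by cqn, scaled by TMM, adjusted for the occasion of sequencing with ComBat and averaged technical replicates, and the labels name mm10. These steps set the level of each sample and decide how much of the sequencing occasion is left in a change of the control line. The deposited log2 table gives no counts, so the depth is unknown and no counting interval was computed. Precision rests on the 3 replicates per group, each from its own culture batch, and the median SE of the excess change was 0.41.

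All 36 columns were matched to samples by line, time and replicate number. One limma model (limma 3.58.1, R 4.3.3) with 12 group means and a mean-variance trend was fitted to the values as deposited. P-values were adjusted by Benjamini-Hochberg over the 469 miRNAs in each contrast, and a miRNA was called at an adjusted p under 0.05. The fit was tested on simulated data. From 2 h to 24 h, samples with the same replicate number share a culture batch by the labels, and the 0 h samples come from other batches. Their deviations from group means correlated at -0.38 between Ikaros 2h and Ikaros 24h, 0.01 between Control 2h and Control 24h, 0.27 between the lines at 2 h and 0.26 at 24 h. Named miRNAs were the 12 largest positive and the 12 largest negative excess changes among those called and of 1 sign in all 3 culture batches, with the members of the miRNA lists described and the 5 most abundant. The members and lists were chosen with earlier results of these data known. Alternatives were the culture batch as a block, only the groups compared, other scalings, a filter on low values, fits without trend or with robust variance, 1 added on the linear scale, Control 18h for Control 24h, single replicates or libraries left out, and, chosen after seeing the data, leaving out the 0 h samples. Hairpins were placed by name with RefSeq (GRCm38.p6) or GENCODE vM21. Figures were drawn with matplotlib 3.10.9.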

Additional observations from a re-analysis of the deposited data

Results flagged for a closer look

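The change from 2 h onward differed between the lines, by the test of that difference itself. At 24 h against 2 h, 67 miRNAs had a change in the Ikaros line that differed from that of the control line, and at 18 h against 2 h there were 19 (limma, adjusted p under 0.05). Both share the 2 h samples. The groups hold 3 libraries each, too few for a test of single outlying libraries.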

How the results depend on the processing

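None of the 24 named leading miRNAs changed sign under any alternative run, and miR-151-3p, miR-26a-2-3p, miR-22-3p, miR-149-5p, miR-3091-3p, miR-210-5p, miR-92a-1-5p, miR-339-3p and miR-128-2-5p were called in all that tested them. The naming rule asks for 1 sign in all 3 culture batches. Leaving out a replicate number or using the culture batch therefore could not reverse a sign. Subtracting medians could not either, since it shifts all values alike by less than any named value. Counts of calls moved more. With only the groups compared in the fit the excess change was called in 37 miRNAs, 15 higher and 22 lower, and the Ikaros change in 71, 26 higher and 45 lower. A replicate block by culture batch gave 75 excess changes, including all 67, and 144 Ikaros changes, including 133 of 134. With the replicate block in full, 1 value per culture batch, 38 were called, 14 higher and 24 lower. Sample medians subtracted gave 38 higher and 18 lower, and 72 higher and 48 lower for the Ikaros change. Quantile normalization gave 27 lower. With 1 replicate number or 1 library left out, and so fewer samples, the excess change was called in 19 to 65 miRNAs, with 9 to 26 higher and 8 to 41 lower, the Ikaros change in 54 to 138, with 23 to 56 higher and 31 to 88 lower, the control change in 0 to 1 and the excess change at 18 h in 3 to 24. Among single libraries, leaving out Control 24h replicate 4 gave 43 excess changes, 25 of them lower, Ikaros 2h replicate 4 gave 11 at 18 h, Ikaros 24h replicate 2 gave 30 higher in the Ikaros line, and Control 2h replicate 2 gave 1 in the control line. All other alternatives stayed within 1.5 times, among them the fit without the 0 h samples with 54, chosen after seeing the data. Apart from the smaller number of samples the cause of these shifts was not tested. The table gives no depth, so what it limits is unknown.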
